A study of Mus musculus with 17 samples.

Results

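Arteriolar smooth muscle cells (aSMCs) sorted from the brains of SMACreER:Ai47 mice were compared with cerebral cortex across all genes, and the programmes of transcription factors, extracellular matrix, metabolism and intracellular signalling that set them apart were described. The comparison holds 12 of the 17 samples of the series, 6 of sorted aSMCs and 6 of cortex, taken by their labels alone. In SMACreER:Ai47 mice a tamoxifen-inducible Cre under the smooth muscle actin promoter turns on EGFP, so the cells were chosen by the activity of that promoter in the driver line. The mice were adults that had received tamoxifen about 1 month earlier, and EGFP-positive cells were sorted from enriched cerebral vessels after CD31-positive endothelial cells and CD45-positive blood cells had been gated out. The cortex samples are labelled as wild type (WT) homogenate of cortical cells, and those labels state neither age nor tamoxifen. The study's text instead describes its control as part of the dissociated cortices that were also used for sorting, set aside beforehand, which would give it the mice, reporter and tamoxifen of the sorted cells. The 2 descriptions differ and could not be reconciled, and neither says that cortex and aSMC samples of one number share a mouse. In the remaining samples, 2 of aSMCs came from SMACreER:Ai14 mice, whose reporter is tdTomato, and 3 of astrocytes from hGFAPCreER:Ai14 mice. The labels number the samples of a group without naming a mouse for each, and the study counts them as separate mice. Levels are CPM, the counts divided by the scaled library total (TMM), and the lowest, the median and the highest of the 6 samples of a group are given in that order, with sorted aSMCs first and cortex second.

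Smooth muscle cells of cerebral arterioles set vessel diameter: calcium and the Rock kinases raise tension by keeping myosin light chain phosphorylated, and cyclic GMP and cyclic AMP lower it. The identity of these cells is held by serum response factor with its partner myocardin, by T-box, forkhead and Ebf factors, and by Notch signals from neighbouring cells. They build the basement membrane and the elastic layers of the wall, of which type IV collagen, laminins, elastin and fibulins are the main parts. Cortex, by contrast, is mostly neurons, astrocytes, oligodendrocytes and microglia, and mural cells are a small share of it.

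A sorted library held 41499087 to 53643624 counts, and a cortex library held 5397905 to 7288036. Mitochondrially encoded genes took 0.214 to 0.559% of them in sorted aSMCs and 35.7 to 72.9% in cortex. Cortex replicates 1 and 2 stood apart from the other cortex samples with 38.8% and 35.7%. Acta2, smooth muscle actin, lay at 1763, 2289.6 and 3777 CPM in sorted aSMCs and at 5, 23.6 and 36.8 CPM in cortex (log2 fold change 6.84, SE 0.51, edgeR adjusted p = 7.95e-09). Myh11, the smooth muscle myosin heavy chain, lay at 1434, 1621 and 2032 CPM and at 3.05, 26.8 and 54.5 CPM (log2 fold change 5.95, SE 0.53, edgeR adjusted p = 7.13e-08). Both defining markers were higher in every sorted sample than in any cortex sample. Of 17 contractile genes tested, 15 were higher (12 with library totals alone) and 1 was lower. The lower gene was Csrp1, a LIM protein of actin filaments, at 1.38, 2.04 and 2.23 CPM against 56, 87.9 and 92.6 CPM (log2 fold change -5.43, SE 0.34, edgeR adjusted p = 1.06e-09). Of the markers of other cells, 12 of 13 neuron, 7 of 7 oligodendrocyte, 10 of 11 microglia and 5 of 5 red blood cell genes were lower in sorted aSMCs and none was higher. The markers of those 4 kinds summed to at most 1.39% of their mean level in cortex. Markers of endothelial cells summed to 246 to 535 CPM in sorted aSMCs and 372 to 1014 in cortex, and 9 of 15 were lower and 2 higher. Pericyte markers were higher in 8 of 11 (5 with library totals alone) and lower in 2, with sums of 2613 to 4595 against 173 to 589 CPM. Astrocyte markers were lower in 9 of 12 and higher in 2. Their sums were 820 to 1454 against 2609 to 11891 CPM, 15.2% of the mean in cortex. Most of the sum in sorted aSMCs came from the 2 that were higher, Gja1 and Sox9, with means of 830 and 259 CPM. Every other astrocyte marker had a mean of at most 4.5 CPM there. Fibroblast markers were higher in 3 of 6 and lower in 2, with sums of 1076 to 1889.7 against 15.2 to 85.2 CPM. Most of the sum in sorted aSMCs was Col1a1, whose raw counts were nearly identical across the sorted samples, as described below. The fibroblast marker Pdgfra had no count there. Genes known to be induced when tissue is dissociated were higher in 15 of 20 and in 8 with library totals alone, with sums of 12852 to 20010.1 CPM against 188 to 564 CPM in cortex. The part of dissociation, of the cells that came with the sort and of the mitochondrial share in the results was not tested.

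Across the genome 11548 of 21640 genes had enough counts to be tested. In sorted aSMCs 3877 (33.6%) were higher and 2887 (25%) lower, 58.6% together, at a Benjamini-Hochberg adjusted p under 0.05 (edgeR, quasi-likelihood). Of all genes tested, 26% were higher and 18.1% lower in every sorted sample than in any cortex sample. The median log2 fold change of all genes tested was 0.32. With library totals alone instead of TMM, the median was -1.13, a shift of -1.45 that lowers each gene by about as much. With that scaling 2279 genes (19.7%) were higher and 4438 (38.4%) lower. Each list of genes is therefore read beside these shares, and the call of a named gene that is lost with library totals alone is given. Counts of list members with library totals alone are given for some lists only, and other lists lost calls as well. Without cortex replicates 1 and 2, 3607 genes were higher and 2902 lower. A bulk sample cannot tell fewer cells of a type from less RNA per cell.

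Among the genes with no count in cortex was Trim38, a ubiquitin ligase of innate immune signalling, at 85.9, 95.8 and 140.4 CPM in sorted aSMCs. It was at least 2180.1-fold higher, with the bound set by 3 counts over the cortex group. Cavin1, the coat protein of caveolae, lay at 63395, 87858 and 92488 CPM against 4.77, 10.9 and 16 CPM (log2 fold change 12.88, SE 0.47, edgeR adjusted p = 9.1e-12). Pdpn, the mucin-like glycoprotein podoplanin, lay at 10076, 12145 and 17811 CPM against 0, 1.38 and 2.52 CPM (log2 fold change 13.24, SE 0.70, edgeR adjusted p = 1.78e-10). The groups did not overlap for any of these 3 genes. At the other end, Slc1a2, the glutamate transporter of astrocytes, lay at 0.176, 0.333 and 0.71 CPM in sorted aSMCs and at 2286, 6203 and 10362 CPM in cortex (log2 fold change -14.06, SE 0.60, edgeR adjusted p = 2.47e-11). Mbp, the myelin basic protein of oligodendrocytes, lay at 0.0791, 0.125 and 0.347 CPM and 1307, 3051 and 5390.4 CPM (log2 fold change -14.27, SE 0.59, edgeR adjusted p = 1.64e-11). P2ry12, the purinergic receptor of microglia, had no count in any sorted sample and lay at 19.6, 72 and 235 CPM in cortex, at least 4291-fold lower. Per kb of exon, the mean level in sorted aSMCs was 22728 CPM for Cavin1, 8019 CPM for Sdc4, 7365 CPM for Pdpn and 1135 CPM for Acta2, so that the defining marker lay below the other 3.

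Many counts were nearly identical across the 6 aSMC columns. Of 6529 genes with at least 20 counts in every sorted sample, 82 (1.26%) had a highest raw count within 5% of the lowest, 304 within 20% and 11 were identical in all 6. Cortex had 4384 genes with that many counts, of which 0 lay within 5% and 1 within 20%. Prok2, the secreted peptide prokineticin 2, had 7840 raw counts in each of the 6 sorted samples, and Adamtsl3, a secreted protein of the ADAMTS family, had 56770 to 56774. Pdpn had 400709 to 401456 and Insig1, which holds the sterol sensor in the endoplasmic reticulum, 392303 to 396504, while the library totals ranged from 41499087 to 53643624. The 82 genes took 8.52 to 11% of a sorted sample's counts, and 68 of them were called higher and 3 lower. Pairs of columns were compared over genes that passed a higher count limit in both columns. Among these, any 2 sorted columns were identical in 27 to 40 genes and any 2 cortex columns in 0 to 14. Over all genes the sorted columns still differed well beyond sampling noise, and they were kept as 6 samples. A difference beyond sampling noise cannot show whether columns are independent samples, as the adjusted p values take them to be. The lowest counts of all genes over the 6 columns summed to 72.3 to 93.5% of a sorted library and 42.8 to 57.8% of a cortex library. For a nearly identical gene the spread between columns before scaling was near 0. In 1 other setting the 6 columns were averaged to 1 library, which leaves 1 sample in the sorted group. Leaving the 82 genes out left 3827 genes higher and 2851 lower.

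**Figure D1:**
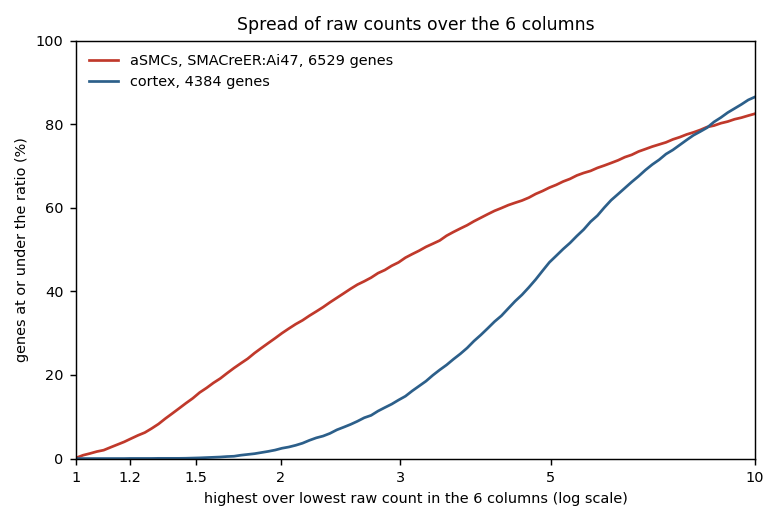
Share of genes (y axis, percent of genes with at least 20 raw counts in every column of the group) whose highest raw count over the 6 columns exceeds the lowest by no more than the ratio on the x axis (log scale), for sorted aSMCs of SMACreER:Ai47 mice and for cortex. The aSMC curve starts above 0 because 11 genes have the same count in all 6 columns, and 304 aSMC genes but 1 cortex gene lie within a ratio of 1.2. The aSMC libraries were also the deeper ones, and the part of depth was not tested.

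Among transcription factors known from the vascular mural lineage, Myocd, Mef2c, Tbx18, Nr2f2, Ebf1 and Klf4 were higher in sorted aSMCs, while Srf did not pass the test. Of 44 such factors in the table, 34 were tested, 22 were higher (64.7%, beside 33.6% of all genes) and 5 lower, with a median log2 fold change of 1.84. With library totals alone 13 were higher and 8 lower, and with the 6 columns as 1 library 11 and 2. Myocd, the myocardin coactivator of the contractile genes, lay at 20.4, 46.3 and 119.8 CPM in sorted aSMCs and at 0.0847, 0.714 and 1.75 CPM in cortex (log2 fold change 6.15, SE 0.71, edgeR adjusted p = 1.51e-06). Its DNA-binding partner Srf lay at 4.37, 7.96 and 19.5 CPM and 2.07, 4.42 and 10.5 CPM (log2 fold change 0.81, SE 0.55, edgeR adjusted p = 0.22), so that the groups overlapped for Srf and not for Myocd. Mef2c, a MADS-box factor of muscle and neurons, lay at 172, 319 and 532 CPM against 40.8, 79.1 and 111 CPM (log2 fold change 2.11, SE 0.33, edgeR adjusted p = 3.88e-05).

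Of 5 T-box genes tested, out of 14 in the table, 4 were higher, and the exception was Tbr1, a factor of deep-layer cortical neurons that had 1 count in all 6 sorted samples together and 6.82, 9.65 and 11.4 CPM in cortex. Tbx18, a marker of the mural lineage, lay at 17.7, 26.3 and 46.9 CPM against 0.508, 1.21 and 2.2 CPM (log2 fold change 4.51, SE 0.53, edgeR adjusted p = 1.68e-06). Tbx3, a T-box repressor, lay at 347, 536 and 638 CPM against 2.1, 4.97 and 5.85 CPM (log2 fold change 6.77, SE 0.35, edgeR adjusted p = 1.44e-10). Neither overlapped with cortex. Tbx2, its close relative, lay at 2.49, 7.17 and 15.6 CPM against 0, 0.264 and 2.7 CPM (log2 fold change 3.62, SE 0.94, edgeR adjusted p = 0.00337) and overlapped. Leaving out 1 sample moved the log2 fold change of Tbx2 to 4.96 without cortex replicate 4. The call was lost for Tbx2 with the 6 columns as 1 library.

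Among the most abundant factors, Nr2f2, the orphan nuclear receptor COUP-TFII, lay at 3199, 4216 and 5389 CPM against 0.556, 6.13 and 9.12 CPM (log2 fold change 9.56, SE 0.57, edgeR adjusted p = 7.38e-10). Ebf1, a helix-loop-helix factor used by pericytes and smooth muscle, lay at 2262, 2838 and 3716 CPM against 25.9, 38.5 and 96.9 CPM (log2 fold change 5.98, SE 0.40, edgeR adjusted p = 2.38e-09). Klf4, a zinc finger factor linked to smooth muscle phenotype, lay at 469, 578 and 739 CPM against 1.24, 6.56 and 18.3 CPM (log2 fold change 6.24, SE 0.51, edgeR adjusted p = 2.72e-08). All 3 were separated from cortex in every sample. Of 14 Kruppel-like factors tested 6 were higher and 2 lower, and the highest level belonged to Klf13, at 2473, 3291 and 4139.9 CPM against 29.7, 41.7 and 66.4 CPM (log2 fold change 6.22, SE 0.31, edgeR adjusted p = 1.1e-10).

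Forkhead factors were mixed, with 8 of 19 higher and 3 lower (6 and 6 with library totals alone) and a median log2 fold change of 0.50. Foxo3, a factor restrained by insulin signalling, lay at 1244, 1627 and 1855 CPM against 24.7, 33.8 and 42.3 CPM (log2 fold change 5.56, SE 0.27, edgeR adjusted p = 7.74e-11). Of the forkheads tied to brain mural cells, Foxs1 lay at 1.6, 6.54 and 12.2 CPM against 0, 0.125 and 0.74 CPM (log2 fold change 4.61, SE 1.05, edgeR adjusted p = 0.00126), and Foxc1 at 3.11, 10.2 and 36.2 CPM against 1.53, 3.43 and 7.19 CPM (log2 fold change 1.86, SE 0.67, edgeR adjusted p = 0.0249). Foxf2 lay at 0.264, 0.542 and 7.67 CPM against 0.415, 2.57 and 7.79 CPM (log2 fold change -0.77, SE 0.90, edgeR adjusted p = 0.482). Foxs1 was separated from cortex, whereas Foxc1 and Foxf2 overlapped with it. Foxk1 was lower, at 0.402, 0.703 and 1.27 CPM against 12.8, 21.1 and 23.4 CPM (log2 fold change -4.66, SE 0.51, edgeR adjusted p = 8.73e-07). With 1 sample left out, the log2 fold change went for Foxs1 to 5.40 without cortex replicate 1, for Foxc1 to 1.27 without aSMC replicate 6 (no longer called), for Foxf2 to -2.28 without aSMC replicate 5 (called). Not called any longer were Foxs1 with the 6 columns as 1 library, and Foxc1 with library totals alone, a fold threshold (log2 of 1), a block for replicate numbers, the 6 columns as 1 library and cortex replicates 1 and 2 left out.

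Several factors better known from other cells of the brain were also high. Ets1, an ETS factor of endothelial and blood cells, lay at 2493, 3544 and 4515 CPM against 8.91, 15.8 and 26 CPM (log2 fold change 7.70, SE 0.40, edgeR adjusted p = 1.74e-10). Erg, the endothelial ETS factor, lay at 0.29, 0.424 and 1.16 CPM against 5.61, 24 and 58.4 CPM (log2 fold change -5.51, SE 0.72, edgeR adjusted p = 6e-06). Nfia and Nfib, nuclear factor I proteins of glia and neurons, lay at 4131, 5837 and 7486 CPM and 1398, 1708 and 2333 CPM in sorted aSMCs and at 91.5, 169.6 and 193 CPM and 45.8, 65.8 and 74.2 CPM in cortex (log2 fold changes 5.16 and 4.86, SE 0.29 and 0.27, edgeR adjusted p = 3.87e-10 and 3.11e-10). Sox9, a factor of astrocytes and cartilage, lay at 190.2, 255 and 369.9 CPM against 8.09, 23.5 and 32.6 CPM (log2 fold change 3.53, SE 0.35, edgeR adjusted p = 2.25e-07). All of these but Erg were above every cortex sample. Of 24 factors of cortical neurons 16 were lower and 4 higher (18 and 2 with library totals alone), of 14 glial factors 9 and 2, and of 15 Sox genes 8 and 2. Lhx2, a LIM homeobox factor of cortical progenitors and glia, lay at 0.0251, 0.0376 and 0.0791 CPM against 12.4, 25.8 and 52.6 CPM (log2 fold change -9.33, SE 0.66, edgeR adjusted p = 4.42e-09). Olig1, the oligodendrocyte factor, had no count in any sorted sample and lay at 5.76, 15.8 and 32.9 CPM in cortex, at least 1368-fold lower. No Hox gene of 16 in the table had enough counts to be tested, and their summed level was 0.422 to 4.07 CPM in sorted aSMCs and 0 to 1.44 CPM in cortex.

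The other families of factors had members in both directions. Of 28 nuclear receptors tested 9 were higher and 9 lower, and with library totals alone 6 and 13. Thrb, a thyroid hormone receptor, lay at 822, 1100.3 and 1665 CPM against 3.11, 6.55 and 17.7 CPM (log2 fold change 7.12, SE 0.48, edgeR adjusted p = 2.98e-09). Rorb, a receptor of layer IV neurons, lay at 0.612, 4.97 and 12.8 CPM against 77.1, 155 and 302 CPM (log2 fold change -4.92, SE 0.59, edgeR adjusted p = 2.48e-06). The groups did not overlap for either. Of 11 interferon regulatory factor and Stat genes 5 were higher and 1 lower, with Irf1 at 67.2, 72.7 and 110.4 CPM against 0, 0.733 and 1.67 CPM (log2 fold change 6.80, SE 0.69, edgeR adjusted p = 3.17e-07). Irf3, the factor of antiviral sensing, lay at 36.4, 60.2 and 76.3 CPM against 0, 0.345 and 1.18 CPM (log2 fold change 6.97, SE 0.71, edgeR adjusted p = 3.35e-07). Both were above every cortex sample. Of 9 endothelial factors 2 were higher and 4 lower, of 8 Hes, Hey and Id genes 4 and 2, and of 9 LIM homeobox and Pou genes 0 and 4. With library totals alone, 1 endothelial factor was higher and 5 lower, and 7 LIM homeobox and Pou genes were lower. The log2 fold change depended on 1 sample for Irf3 (7.70 without cortex replicate 1).

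**Figure D2:**
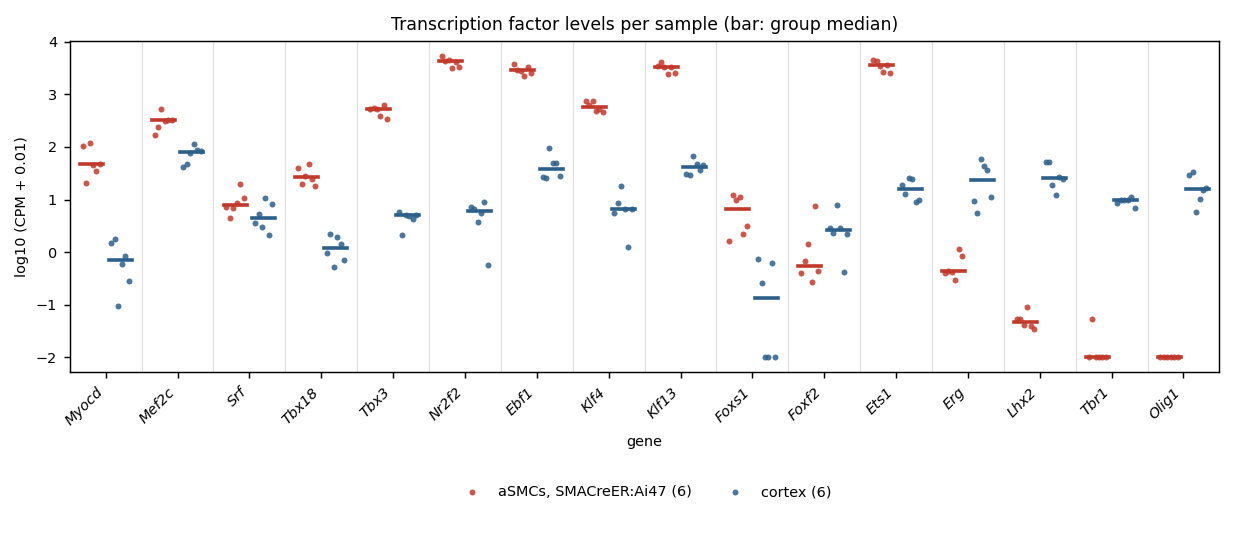
Levels of 16 transcription factor genes in each sample (y axis, log10 of CPM + 0.01, so that 0 CPM plots at -2), with sorted aSMCs of SMACreER:Ai47 mice and cortex side by side and the median of each group as a bar. Nr2f2, Ebf1, Klf4, Klf13 and Tbx3 stand above every cortex sample, Srf and Foxf2 overlap with cortex, and Tbr1, Lhx2 and Olig1 are at or near 0 in sorted aSMCs.

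Serum response factor binds the CArG box, and the promoters of genes of the contractile and actin pathway were searched for exact matches to it, on both strands, in RefSeq windows of 250 bases before to 50 after each start (GRCm38). Of all 32851 promoters, which include those of genes not tested, 1.63% held an exact CArG box. Exact CArG boxes were held by 1.6% of promoters of genes called higher, 1% of those called lower and 1.27% of those not called. They were held by 3 of 25 promoters of the Rock and myosin phosphatase genes and 1 of 16 of the contractile genes. The share was larger, 5 of 21, for promoters of the genes induced by dissociation, all of Egr2 and Zfp36. The stretch around the box is printed for Myl9, Myl6, Rnd3 and Srf itself, 5′ to 3′ on the strand of the gene, with the box in capitals, because it is the site through which Srf and Myocd act. The Srf stretch holds another box in capitals, nearer the start than the one whose position is given. The stretches lie at chr2:156775278-156775337 on the plus strand for Myl9, chr10:128493025-128493084 on the minus strand for Myl6, chr2:51149177-51149236 on the minus strand for Rnd3, chr17:46556210-46556269 on the minus strand for Srf, and the boxes 152 to 161 bases before the start in Myl9, 41 to 50 bases before the start in Myl6, 91 to 100 bases before the start in Rnd3, 73 to 82 bases before the start in Srf.
Myl9: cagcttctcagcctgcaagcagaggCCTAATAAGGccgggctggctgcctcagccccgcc
Myl6: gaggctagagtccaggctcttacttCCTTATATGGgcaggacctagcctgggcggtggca
Rnd3: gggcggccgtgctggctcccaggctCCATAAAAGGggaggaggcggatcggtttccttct
Srf: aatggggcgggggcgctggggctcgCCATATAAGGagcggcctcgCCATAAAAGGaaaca
Myl9 and Myl6 encode light chains of smooth muscle and non-muscle myosin, and Rnd3 a small GTPase that restrains Rock1. Myl9 was at 139.6, 144 and 195 CPM against 2.96, 12.9 and 17.2 CPM (log2 fold change 3.74, SE 0.39, edgeR adjusted p = 4.18e-07). Myl6 lay at 111, 186 and 283 CPM against 3.34, 16.6 and 30.1 CPM (log2 fold change 3.43, SE 0.47, edgeR adjusted p = 8.57e-06). These were chosen for their box, after their values were seen. The RBPJ motif GTGGGAA was held by 6.38% of all promoters and 5.97% of those of genes called higher, and the AP-1 motif TGANTCA by 7.81% and 5.38%. Among promoters of genes tested but not called the shares were 5.89% for RBPJ and 4.86% for AP-1. A match is a description of the window and not a bound site.

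Of 15 collagens tested 11 were higher and none lower (median log2 fold change 2.61), but 5 with library totals alone and 7 with the columns as 1 library. Of 26 metalloproteinase, Adamts and Timp genes 17 were higher and 2 lower (median 3.09), against 14 and 4 with library totals alone. Of 15 matricellular genes 9 were higher and none lower (6 and 1 with library totals alone), and of 15 integrins 7 were higher and 4 lower (2 and 4 with library totals alone). Elastic fibre genes were higher in 6 and lower in 3 of 15, but in 3 and 5 with library totals alone. Small leucine-rich proteoglycans, syndecans and glypicans were higher in 6 and lower in 1 of 14, against 5 and 3 with library totals alone. Of the proteases, Adamts8 lay at 29.8, 43.1 and 78 CPM against 0, 0.0749 and 0.222 CPM (log2 fold change 9.08, SE 0.78, edgeR adjusted p = 4.56e-08), and Mmp2, a gelatinase, was lower at 0.427, 0.562 and 0.754 CPM against 0.222, 1.64 and 20.3 CPM (log2 fold change -3.08, SE 0.95, edgeR adjusted p = 0.0107) and overlapped. Of the matricellular genes, Spp1, osteopontin, lay at 14.4, 17.4 and 25.5 CPM against 0, 0.111 and 0.254 CPM (log2 fold change 6.97, SE 0.75, edgeR adjusted p = 7.24e-07), with 573 to 574 raw counts in the sorted samples, and Sparcl1, a secreted SPARC-like protein, at 304, 566 and 583 CPM against 226, 577 and 736 CPM (log2 fold change -0.16, SE 0.30, edgeR adjusted p = 0.67). Sparcl1 overlapped with cortex, and Adamts8 and Spp1 did not. Single samples moved the log2 fold change of Adamts8 to 9.94 without cortex replicate 1, of Mmp2 to -1.63 without cortex replicate 5 (no longer called). The call was lost for Mmp2 with a block for replicate numbers and the 6 columns as 1 library. Called under other settings were Sparcl1 with library totals alone.

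Basement membrane genes divided. Of 19 tested 10 were higher and 3 lower, against 4 and 4 with library totals alone. Of the main type IV collagen chains, Col4a1 lay at 45.7, 68.8 and 80.4 CPM against 8.35, 10.8 and 30.9 CPM (log2 fold change 2.18, SE 0.38, edgeR adjusted p = 0.000116), whereas its partner Col4a2 lay at 8.19, 22.6 and 59.8 CPM against 4.35, 20.2 and 37.8 CPM (log2 fold change 0.34, SE 0.55, edgeR adjusted p = 0.617). The groups were separated for Col4a1 and overlapped for Col4a2. Col4a3, a chain best known from kidney and lung membranes, lay at 113, 219 and 773 CPM against 0, 0.207 and 1.63 CPM (log2 fold change 9.15, SE 0.97, edgeR adjusted p = 5.72e-07). Lama5, a laminin of arterial walls, lay at 4.21, 16.8 and 45.8 CPM against 3.89, 6.84 and 12.6 CPM (log2 fold change 1.21, SE 0.57, edgeR adjusted p = 0.0778). Hspg2, the heparan sulfate proteoglycan perlecan, lay at 0.844, 1.73 and 10.1 CPM against 4.77, 11.1 and 18.2 CPM (log2 fold change -1.86, SE 0.69, edgeR adjusted p = 0.0299). Both overlapped with cortex. Leaving out 1 sample moved the log2 fold change of Col4a3 to 9.81 without cortex replicate 1, of Lama5 to 1.36 without aSMC replicate 3 (called), 1.40 without aSMC replicate 5 (called) and 1.49 without cortex replicate 5 (called), of Hspg2 to -2.75 without aSMC replicate 1 and between -1.77 and -1.60 (no longer called) without any 1 of aSMC replicates 2, 4 and 6 and cortex replicates 1, 2 and 6. Not called any longer were Col4a1 with library totals alone, and Hspg2 with DESeq2 size factors, no filter on counts, a fold threshold (log2 of 1), the 6 columns as 1 library and cortex replicates 1 and 2 left out. A call was gained for Lama5 with no filter on counts and DESeq2.

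The fibrillar and elastic genes also went more than one way. Col1a1, a chain of type I collagen, lay at 991, 1197 and 1779 CPM against 0.415, 0.708 and 1.61 CPM (log2 fold change 10.47, SE 0.45, edgeR adjusted p = 2.72e-11), with 39417 to 40086 raw counts in the 6 sorted samples, among the nearly identical genes. Col1a2, the other chain of the same protein, lay at 54.2, 79.8 and 151 CPM against 5.18, 6.51 and 8.11 CPM (log2 fold change 3.71, SE 0.36, edgeR adjusted p = 2.04e-07), with 1866 to 4799 raw counts. Per kb of exon, the mean level of Col1a1 was 201 CPM and that of Col1a2 6.97 CPM in sorted aSMCs. Eln, elastin, lay at 15.1, 34.1 and 57.8 CPM against 0.556, 2.43 and 11.4 CPM (log2 fold change 3.10, SE 0.65, edgeR adjusted p = 0.000577). Fbln5, a fibulin that assembles elastin, lay at 0.221, 0.331 and 0.959 CPM against 0, 2.58 and 5.63 CPM (log2 fold change -2.74, SE 0.84, edgeR adjusted p = 0.0104) and overlapped. Ltbp1, which holds latent TGF-beta in the matrix, lay at 6007, 9041 and 11135 CPM against 4.45, 8.41 and 10.6 CPM (log2 fold change 10.07, SE 0.39, edgeR adjusted p = 1.01e-11), and its relative Ltbp4 lay at 0.668, 1.25 and 7.22 CPM against 13.9, 26.2 and 47.9 CPM (log2 fold change -3.72, SE 0.65, edgeR adjusted p = 0.000121). Ltbp1 was above and Ltbp4 below every cortex sample. With 1 sample left out, the log2 fold change went for Eln to 3.83 without cortex replicate 1, for Ltbp4 to -4.64 without aSMC replicate 2. The call was lost for Eln with library totals alone, and for Fbln5 with a block for replicate numbers and the 6 columns as 1 library.

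At the cell surface, Sdc4, a syndecan of focal adhesions, lay at 15809.6, 20823 and 25716 CPM against 13.6, 29.4 and 58.2 CPM (log2 fold change 9.16, SE 0.45, edgeR adjusted p = 9.95e-11). Gpc3, a glypican, lay at 242, 301 and 400.3 CPM against 0, 0.253 and 1.25 CPM (log2 fold change 9.58, SE 0.66, edgeR adjusted p = 3.3e-09). Itga7 and Itga1, laminin and collagen receptors of muscle, lay at 84, 131 and 185 CPM and 102, 173 and 234 CPM against 0.0847, 2.51 and 7.34 CPM and 17.4, 30.2 and 48.7 CPM in cortex (log2 fold changes 5.61 and 2.48, SE 0.70 and 0.32, edgeR adjusted p = 3.63e-06 and 5.54e-06). None of the 4 overlapped with cortex. The lecticans and perineuronal net genes of brain tissue were lower in 7 of 9 (median log2 fold change -5.98). Bcan, brevican of astrocytes, lay at 0.0264, 0.0441 and 0.315 CPM against 3.89, 15.4 and 47.2 CPM (log2 fold change -7.68, SE 0.92, edgeR adjusted p = 2.35e-06). Ptprz1, a receptor phosphatase with chondroitin sulfate chains, lay at 0.261, 0.331 and 0.844 CPM against 81.9, 229 and 399.7 CPM (log2 fold change -9.00, SE 0.53, edgeR adjusted p = 6.49e-10). The log2 fold change depended on 1 sample for Gpc3 (10.23 without cortex replicate 6), for Itga7 (6.25 without cortex replicate 4), for Bcan (-8.55 without aSMC replicate 3).

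**Figure D3:**
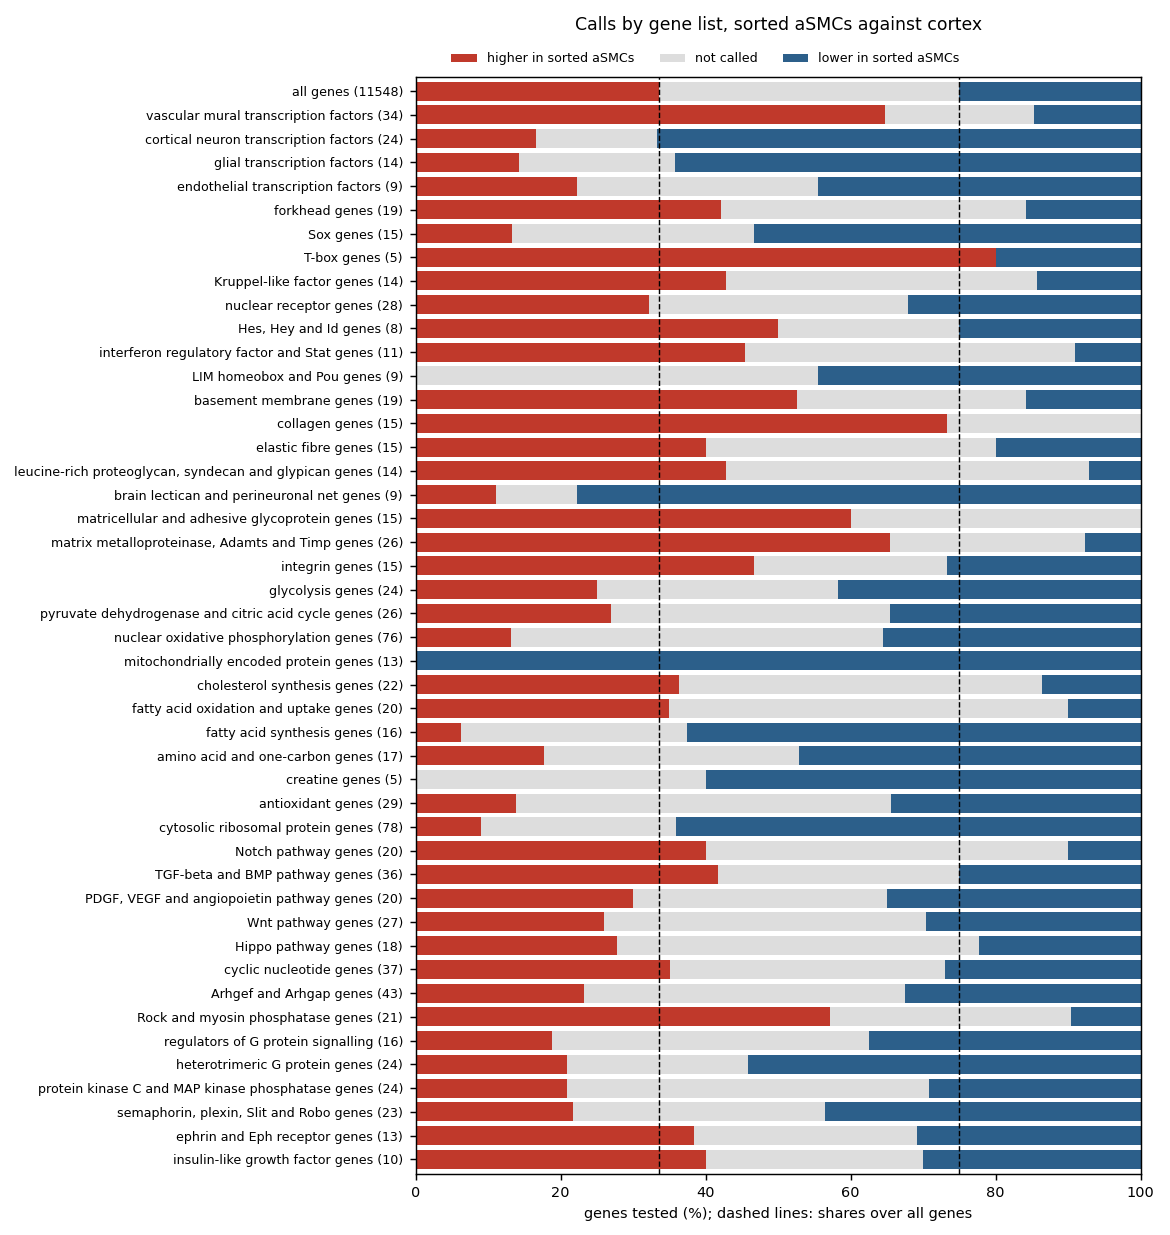
Share of tested genes of each list of transcription factor, matrix, metabolism and signalling genes called higher, lower or not called in sorted aSMCs of SMACreER:Ai47 mice against cortex (x axis, percent of tested genes, n tested in parentheses), with all 11548 genes as the top bar. Mural transcription factors, collagens and protease genes have larger higher shares than the 33.6% of all genes, and fatty acid synthesis, ribosomal and mitochondrially encoded genes larger lower shares than 25%.

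Of 24 glycolysis genes tested, 6 were higher and 10 lower (median log2 fold change -0.53), against 2 and 13 with library totals alone. Of the lactate dehydrogenase subunits, Ldha, which favours lactate, lay at 177, 192 and 260.2 CPM against 17.7, 41.6 and 60.9 CPM (log2 fold change 2.36, SE 0.32, edgeR adjusted p = 7.38e-06). Ldhb, which favours pyruvate, lay at 5.14, 7.27 and 12.2 CPM against 50.2, 92.6 and 121 CPM (log2 fold change -3.43, SE 0.37, edgeR adjusted p = 7.83e-07). Ldha was above and Ldhb below every cortex sample. Of the hexokinases, Hk2 of muscle lay at 8.72, 29.8 and 43.2 CPM against 2.22, 4.67 and 13.3 CPM (log2 fold change 2.12, SE 0.57, edgeR adjusted p = 0.00456) and Hk1 of brain at 0.666, 2.72 and 18 CPM against 2.85, 9.02 and 13.2 CPM (log2 fold change -0.55, SE 0.76, edgeR adjusted p = 0.559). Pkm, pyruvate kinase, lay at 17.6, 31.8 and 48.2 CPM against 17.8, 36.3 and 40.8 CPM (log2 fold change 0.08, SE 0.36, edgeR adjusted p = 0.87). All 3 overlapped with cortex. Aldoc, the aldolase of astrocytes, lay at 0, 0.0222 and 0.189 CPM against 99.1, 275 and 540.0 CPM (log2 fold change -12.28, SE 0.87, edgeR adjusted p = 4.98e-09). Slc2a1, which carries glucose across the blood-brain barrier, lay at 6.86, 11.1 and 18.7 CPM against 55.3, 160.3 and 208 CPM (log2 fold change -3.63, SE 0.40, edgeR adjusted p = 7.94e-07). Single samples moved the log2 fold change of Aldoc to -13.06 without aSMC replicate 3. Not called any longer were Ldha with library totals alone, and Hk2 with library totals alone, a fit of all 17 samples and the 6 columns as 1 library. Called under other settings were Hk1 with library totals alone, and Pkm with library totals alone.

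In the fit of all 17 samples, mitochondrially encoded protein genes summed to means of 7710 CPM in the Ai47 aSMCs, 77965 CPM in the Ai14 aSMCs and 591361 CPM in cortex. The Ai47 aSMCs were thus also low beside the other sort, with 10 of 13 genes called lower. Against cortex, all 13 mitochondrially encoded protein genes were lower (median log2 fold change -7.38). They ranged from mt-Nd5, a complex I subunit, at 1578, 2029.7 and 3049.9 CPM against 9215, 41370.4 and 79604 CPM (log2 fold change -4.19, SE 0.49, edgeR adjusted p = 1.85e-06), to mt-Atp8, a subunit of ATP synthase, at 5.93, 8.42 and 10.3 CPM against 1303, 5060 and 10259 CPM (log2 fold change -9.26, SE 0.61, edgeR adjusted p = 2.13e-09). Of 76 nuclear genes of the same complexes 10 were higher and 27 lower (median -0.69), against 3 and 50 with library totals alone. Leaving the mitochondrially encoded genes out of the scaling gave 4060 genes higher and 2998 lower in all. Ndufs1, a nuclear complex I subunit, lay at 118, 163 and 205 CPM against 2.69, 8.86 and 23.3 CPM (log2 fold change 3.90, SE 0.48, edgeR adjusted p = 2.89e-06). Cytosolic ribosomal protein genes were lower in 50 and higher in 7 of 78 (median -1.44), against 68 and 3 with library totals alone, and many have near-identical pseudogene copies that could split their reads. Both mitochondrially encoded genes lay below and Ndufs1 above every cortex sample. Of 26 pyruvate dehydrogenase and citric acid cycle genes 7 were higher and 9 lower, against 1 and 15 with library totals alone, with Suclg2, a subunit of succinate CoA ligase, at 0.352, 0.77 and 1.02 CPM against 2.4, 18.8 and 30.2 CPM (log2 fold change -4.52, SE 0.71, edgeR adjusted p = 3.73e-05). Among the ribosomal genes that were higher, Rps25 lay at 1275, 1691 and 2199 CPM against 41.9, 64.1 and 144 CPM (log2 fold change 4.44, SE 0.36, edgeR adjusted p = 2.28e-08).

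Lipid genes followed no single direction. Of 22 cholesterol synthesis genes 8 were higher and 3 lower, but 5 and 10 with library totals alone. Insig1, which holds back the sterol response, lay at 9894, 11999.9 and 17476 CPM against 5.56, 15.7 and 19.6 CPM (log2 fold change 9.85, SE 0.44, edgeR adjusted p = 3.01e-11). Insig1 is among the nearly identical genes. Hmgcs1, a synthase early in the route, lay at 21.3, 44.6 and 83.8 CPM against 23.7, 61.5 and 103 CPM (log2 fold change -0.40, SE 0.46, edgeR adjusted p = 0.47) and overlapped, and Nsdhl, a later enzyme, was lower at 0.0251, 0.128 and 0.914 CPM against 1.24, 7 and 9.1 CPM (log2 fold change -4.59, SE 0.96, edgeR adjusted p = 0.000628). Fatty acid synthesis genes were lower in 10 and higher in 1 of 16 (median -2.56). Fads1, a desaturase of long-chain polyunsaturated fatty acids, lay at 0.185, 0.253 and 0.477 CPM against 64.5, 129.6 and 223 CPM (log2 fold change -8.89, SE 0.50, edgeR adjusted p = 3.89e-10), and Elovl2, an elongase of the same chains, had no count in sorted aSMCs and 1.2, 14 and 30.8 CPM in cortex, at least 983-fold lower. In fatty acid uptake and oxidation 7 of 20 were higher and 2 lower, but 4 and 9 with library totals alone. Lpl, lipoprotein lipase, lay at 65.6, 87.3 and 172 CPM against 1.11, 3.56 and 10.2 CPM (log2 fold change 4.53, SE 0.50, edgeR adjusted p = 1e-06). Cpt1a, the gate of fatty acids into mitochondria, lay at 3.46, 12.3 and 31.9 CPM against 9.88, 18.7 and 50.3 CPM (log2 fold change -0.83, SE 0.53, edgeR adjusted p = 0.193). Leaving out 1 sample moved the log2 fold change of Nsdhl to -5.69 without aSMC replicate 3, of Cpt1a to -1.28 without aSMC replicate 3 (called). A call was gained for Hmgcs1 with library totals alone, and for Cpt1a with library totals alone.

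Among amino acid and redox genes, Glul, the glutamine synthetase of astrocytes, lay at 8.91, 11.1 and 18.3 CPM against 614, 1165 and 1549.6 CPM (log2 fold change -6.43, SE 0.35, edgeR adjusted p = 2.48e-10). Sat1, which acetylates polyamines for export, lay at 6133, 8089.6 and 10489 CPM against 3.94, 5.42 and 14.6 CPM (log2 fold change 9.95, SE 0.51, edgeR adjusted p = 1.26e-10). Both were separated from cortex, Glul below and Sat1 above. Of 17 amino acid and one-carbon genes 3 were higher and 8 lower, and of 5 creatine genes 3 were lower and none higher, with Ckb, the brain creatine kinase, at 7.48, 12.3 and 17.4 CPM against 32.3, 92.9 and 206 CPM (log2 fold change -3.19, SE 0.46, edgeR adjusted p = 1.45e-05). Antioxidant genes were lower in 10 and higher in 4 of 29, against 12 and 2 with library totals alone. The higher ones included both intracellular superoxide dismutases, Sod1 of the cytosol at 4127, 5689 and 7482 CPM against 45.4, 53.5 and 83.5 CPM (log2 fold change 6.51, SE 0.31, edgeR adjusted p = 7.74e-11) and Sod2 of mitochondria at 541, 666 and 775 CPM against 44.2, 62 and 76.3 CPM (log2 fold change 3.43, SE 0.25, edgeR adjusted p = 6.08e-09). Gstm1, a glutathione transferase, was lower at 1.92, 3.44 and 8.09 CPM against 123, 155 and 247 CPM (log2 fold change -5.32, SE 0.45, edgeR adjusted p = 3.77e-08).

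**Figure D4:**
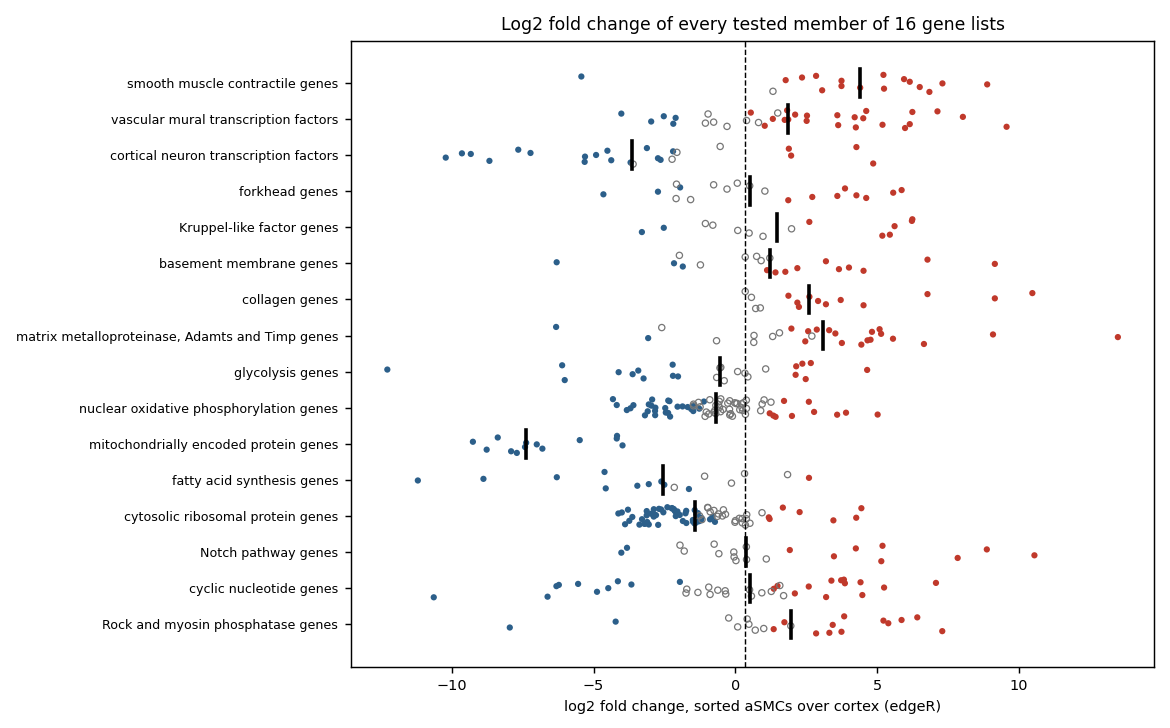
Log2 fold change (x axis, sorted aSMCs of SMACreER:Ai47 mice over cortex, edgeR) of every tested member of 16 gene lists, one point per gene, filled where the adjusted p is under 0.05, with the list median as a black bar and the median of all genes tested (0.32) as a dashed line. The smooth muscle contractile list has the highest median and the mitochondrially encoded list the lowest of those drawn.

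Signalling genes were examined from ligands and receptors down to kinases. In the Notch pathway, by which neighbouring cells keep smooth muscle mature, 8 of 20 genes tested were higher and 2 lower, against 7 and 6 with library totals alone. Jag1, a ligand, lay at 7010.4, 9344 and 10463 CPM against 0.622, 5.05 and 12.1 CPM (log2 fold change 10.54, SE 0.60, edgeR adjusted p = 4.12e-10). The receptors Notch2 and Notch3 lay at 5747, 7576 and 10112 CPM and 73.1, 93.3 and 169 CPM in sorted aSMCs and at 6.21, 15.8 and 34.1 CPM and 6.88, 9.4 and 12.6 CPM in cortex (log2 fold changes 8.87 and 3.47, SE 0.50 and 0.34, edgeR adjusted p = 3.37e-10 and 1.9e-07). Per kb of exon, the mean level in sorted aSMCs was 725 CPM for Notch2 and 13.2 CPM for Notch3. Of the target genes, Heyl lay at 111, 184 and 277 CPM against 0.762, 8.16 and 23.5 CPM (log2 fold change 4.25, SE 0.61, edgeR adjusted p = 1.64e-05). Hes1 lay at 6.83, 36.6 and 129 CPM against 0, 1.42 and 4.35 CPM (log2 fold change 5.19, SE 1.01, edgeR adjusted p = 0.000305). Hey1 lay at 0.251, 0.429 and 5.2 CPM against 5.18, 24 and 29.8 CPM (log2 fold change -4.02, SE 0.87, edgeR adjusted p = 0.000794) and overlapped. With 1 sample left out, the log2 fold change went for Hes1 to 5.80 without cortex replicate 5, for Hey1 to -5.63 without aSMC replicate 3.

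In the TGF-beta and BMP pathway 15 of 36 genes were higher and 9 lower (8 and 10 with library totals alone). Tgfb3, a ligand, lay at 198, 235 and 490.0 CPM against 1.27, 3.18 and 19.9 CPM (log2 fold change 5.62, SE 0.63, edgeR adjusted p = 1.08e-06). Fstl1, a secreted follistatin-like protein, lay at 1834, 2261 and 3010.2 CPM against 6.43, 8.75 and 10.9 CPM (log2 fold change 8.07, SE 0.31, edgeR adjusted p = 1.01e-11). Both were above every cortex sample. Of the PDGF, VEGF and angiopoietin genes 6 of 20 were higher and 7 lower, against 3 and 10 with library totals alone. Pdgfa, a ligand, lay at 287, 432 and 607 CPM against 6.96, 10 and 32 CPM (log2 fold change 5.05, SE 0.42, edgeR adjusted p = 3.74e-08). Pdgfrb, the receptor that recruits mural cells, lay at 3.84, 23.7 and 94 CPM against 1.87, 7.16 and 13 CPM (log2 fold change 2.16, SE 0.73, edgeR adjusted p = 0.0179) and overlapped. Vegfa, the endothelial growth factor, lay at 0.105, 0.132 and 0.226 CPM against 0.599, 5.82 and 20.9 CPM (log2 fold change -5.69, SE 0.85, edgeR adjusted p = 2.42e-05). Pdgfa was above and Vegfa below every cortex sample. The log2 fold change depended on 1 sample for Tgfb3 (6.62 without cortex replicate 6), for Pdgfrb (1.40 without aSMC replicate 1 (no longer called)), for Vegfa (-5.06 without cortex replicate 6). The call was lost for Pdgfrb with library totals alone, the 6 columns as 1 library and cortex replicates 1 and 2 left out.

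In the Wnt pathway 7 of 27 were higher and 8 lower, against 4 and 11 with library totals alone. Lgr4, a receptor of R-spondins, lay at 1953, 2466 and 3472 CPM against 1.67, 7.06 and 9.47 CPM (log2 fold change 8.72, SE 0.46, edgeR adjusted p = 1.92e-10), with nearly identical raw counts of 77729 to 81533. Tcf7l2, the nuclear factor of the pathway, lay at 1789, 2354 and 3212 CPM against 9.58, 12.8 and 25.3 CPM (log2 fold change 7.25, SE 0.38, edgeR adjusted p = 1.92e-10), while the feedback target Axin2 lay at 0.0888, 0.343 and 0.61 CPM against 2.1, 6.57 and 10.4 CPM (log2 fold change -4.26, SE 0.69, edgeR adjusted p = 5.4e-05). The receptor and the factor were above, and Axin2 below, every cortex sample. Wnt5a, a ligand, lay at 0.703, 1.29 and 5.72 CPM against 0, 2.62 and 5.98 CPM (log2 fold change -0.46, SE 0.82, edgeR adjusted p = 0.66). In the Hippo pathway 5 of 18 were higher and 4 lower (2 and 7 with library totals alone), with the kinase Lats2 at 491, 733 and 1062 CPM against 12.4, 15.7 and 30.9 CPM (log2 fold change 5.31, SE 0.34, edgeR adjusted p = 1.46e-09) and the nuclear effector Tead1 at 3.82, 12.6 and 28.2 CPM against 16.6, 31 and 33.1 CPM (log2 fold change -0.97, SE 0.44, edgeR adjusted p = 0.0707). Single samples moved the log2 fold change of Tead1 to -1.30 without aSMC replicate 2 (called). Called under other settings were Tead1 with library totals alone, the 1 CPM filter and DESeq2.

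The relaxing pathway of cyclic nucleotides had 13 of 37 genes higher and 10 lower, against 9 and 14 with library totals alone. Gucy1a1, a subunit of the nitric oxide receptor, lay at 113, 205 and 264 CPM against 5.51, 12 and 26 CPM (log2 fold change 3.73, SE 0.40, edgeR adjusted p = 5.95e-07). Prkg1, the cyclic GMP kinase downstream of it, lay at 2.17, 25.6 and 27.5 CPM against 2.64, 7.2 and 13.1 CPM (log2 fold change 1.48, SE 0.59, edgeR adjusted p = 0.0414) and overlapped. Mrvi1, its substrate at calcium stores, lay at 459, 666 and 880.3 CPM against 0.678, 3.87 and 15.7 CPM (log2 fold change 7.07, SE 0.67, edgeR adjusted p = 1.65e-07). The receptor subunit and the substrate were separated from cortex and the kinase between them was not. The phosphodiesterases Pde5a, which breaks down cyclic GMP, and Pde3a, which breaks down cyclic AMP, lay at 19.7, 118 and 202 CPM and 231, 284 and 375 CPM against 2.63, 5.74 and 8.84 CPM and 2.29, 10.6 and 32 CPM in cortex (log2 fold changes 4.41 and 4.48, SE 0.52 and 0.53, edgeR adjusted p = 1.93e-06 and 1.83e-06). Prkaca, the catalytic subunit of protein kinase A, lay at 498, 630.0 and 791 CPM against 7.79, 17.6 and 27 CPM (log2 fold change 5.24, SE 0.34, edgeR adjusted p = 2.02e-09). Adcy1, a neuronal adenylyl cyclase, lay at 0.0251, 0.0595 and 0.178 CPM against 81.9, 127 and 181 CPM (log2 fold change -10.64, SE 0.58, edgeR adjusted p = 2.48e-10). Apart from Prkg1, none of these overlapped with cortex. Leaving out 1 sample moved the log2 fold change of Prkg1 to between 1.35 and 1.46 (no longer called) without any 1 of aSMC replicates 3, 4, 5 and 6 and cortex replicates 3, 4 and 6, of Mrvi1 to 7.97 without cortex replicate 6. Not called any longer were Prkg1 with library totals alone, the 1 CPM filter, a fold threshold (log2 of 1), a block for replicate numbers, a fit of all 17 samples and the 6 columns as 1 library.

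Among genes of the Rock pathway, Rock1 and Rnd3, which restrains it, were higher and Rhob lower in sorted aSMCs. Of 21 Rock and myosin phosphatase genes 12 were higher (57.1%, beside 33.6% of all genes) and 2 lower, against 9 and 4 with library totals alone. The higher members include genes of myosin phosphatase as well as of the kinase that inhibits it, so the count gives no direction of tension. Rock1, a kinase that inhibits myosin phosphatase, lay at 2654, 2807 and 3704 CPM against 28.5, 40.2 and 84.8 CPM (log2 fold change 5.86, SE 0.35, edgeR adjusted p = 7.8e-10). Rnd3 lay at 824, 1159 and 1509 CPM against 4.4, 7.49 and 9.42 CPM (log2 fold change 7.29, SE 0.32, edgeR adjusted p = 3e-11). Rhob, a small GTPase of endosomes, was lower at 1.01, 2.66 and 5.15 CPM against 30.6, 54 and 79.4 CPM (log2 fold change -4.23, SE 0.51, edgeR adjusted p = 2.54e-06). Of 43 Arhgef and Arhgap genes, which encode exchange factors and activators of small GTPases, 10 were higher and 14 lower (6 and 21 with library totals alone), and of 16 regulators of G protein signalling 3 and 6 (2 and 11). Rgs5 and Rgs4, the mural members of that family, lay at 1817, 2540.4 and 3909 CPM and 166, 198 and 281 CPM against 139.7, 220.3 and 486 CPM and 9.91, 25.7 and 40.6 CPM (log2 fold changes 3.37 and 3.03, SE 0.33 and 0.33, edgeR adjusted p = 2.3e-07 and 7.71e-07). Rgs8, a neuronal member, lay at 0.0251, 0.0376 and 0.0888 CPM against 10.7, 16.3 and 37.5 CPM (log2 fold change -8.59, SE 0.67, edgeR adjusted p = 1.4e-08). All 3 were separated from cortex, Rgs8 below it.

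Of the heterotrimeric G protein subunits 13 of 24 were lower and 5 higher. Gna11, which couples receptors to calcium release, lay at 1504, 2001 and 3158 CPM against 10.5, 19.9 and 25.1 CPM (log2 fold change 6.79, SE 0.35, edgeR adjusted p = 1.66e-10), and Gnb1, a beta subunit, at 9508, 12917 and 14736 CPM against 147, 204 and 268 CPM (log2 fold change 5.88, SE 0.27, edgeR adjusted p = 4.85e-11). Gng7, a gamma subunit of neurons, lay at 0.0251, 0.046 and 0.399 CPM against 64.5, 71.4 and 84.8 CPM (log2 fold change -9.51, SE 0.71, edgeR adjusted p = 8.34e-09). With 1 sample left out, the log2 fold change went for Gng7 to -10.56 without aSMC replicate 1.

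The remaining signalling lists had members in both directions. Protein kinase C and MAP kinase phosphatase genes were higher in 5 and lower in 7 of 24, semaphorin, plexin, Slit and Robo genes in 5 and 10 of 23, ephrins and their receptors in 5 and 4 of 13, and insulin-like growth factor genes in 4 and 3 of 10. With library totals alone these became 4 and 11, 4 and 14, 2 and 4, and 2 and 4. Dusp3, a phosphatase of the ERK and JNK kinases, lay at 11800.3, 18654 and 22384 CPM against 32.4, 45.2 and 61.8 CPM (log2 fold change 8.54, SE 0.35, edgeR adjusted p = 1.4e-11). Efna5, a membrane-bound ephrin, lay at 4672, 5722 and 8339 CPM against 0.207, 1.09 and 3.44 CPM (log2 fold change 12.11, SE 0.68, edgeR adjusted p = 3.21e-10), with nearly identical raw counts of 185942 to 189667. Efnb2, the ephrin of arteries, lay at 43, 75.6 and 138 CPM against 2.7, 6.35 and 11.4 CPM (log2 fold change 3.55, SE 0.42, edgeR adjusted p = 1.8e-06). All 3 were above every cortex sample. The guidance receptors Robo1 and Robo2 went apart, Robo1 at 93.6, 111 and 167 CPM against 2.46, 8 and 18.9 CPM (log2 fold change 3.80, SE 0.43, edgeR adjusted p = 1.17e-06). Robo2 lay at 0, 0 and 0.465 CPM against 6.29, 8.86 and 15.2 CPM (log2 fold change -6.74, SE 1.20, edgeR adjusted p = 0.000138). Igf2r, which clears insulin-like growth factor 2, lay at 137, 158 and 207 CPM against 1.24, 2.65 and 5.59 CPM (log2 fold change 5.78, SE 0.39, edgeR adjusted p = 2.79e-09). The log2 fold change depended on 1 sample for Robo2 (-9.59 without aSMC replicate 5).

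The aSMCs of SMACreER:Ai14 mice allowed the same genes to be read in another sort of these cells, in 1 edgeR fit of all 17 samples in which 1426 of 14927 genes (9.55%) were higher and 2392 (16%) lower in the Ai47 than in the Ai14 aSMCs. With the 8 aSMC samples alone the counts were 2751 and 2922. The 2 sorts also differed in depth, 14870507 and 14979228 counts for the Ai14 aSMCs, in the mitochondrial share, 16.8% and 17.6%, and in reporter, so that sort, depth and reporter cannot be told apart. The following contractile, identity and relaxation genes did not pass the test. Acta2 had a mean of 3266 CPM in the Ai47 and 2624 CPM in the Ai14 aSMCs (log2 difference 0.32, SE 0.57, edgeR adjusted p = 0.736), and Myocd 80.9 and 138 CPM (log2 difference -0.78, SE 1.18, edgeR adjusted p = 0.682). Myh11 had 2176 and 4116 CPM (log2 difference -0.92, SE 0.69, edgeR adjusted p = 0.357), and was called lower in the Ai47 aSMCs with the 8 aSMC samples alone (log2 difference -0.78, edgeR adjusted p = 0.00455). Tbx18 had 39.2 and 50.9 CPM (log2 difference -0.38, SE 0.74, edgeR adjusted p = 0.761) and Gucy1a1 257 and 366 CPM (log2 difference -0.51, SE 0.81, edgeR adjusted p = 0.696). A p above the threshold does not show equal levels, and the SEs cover the spread of 2 Ai14 samples with that of the other groups.

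Several genes that were among the highest in the Ai47 aSMCs were lower in the Ai14 aSMCs, as were the summed levels of many lists. Cavin1 had 107966 CPM against 429 (log2 difference 7.98, SE 0.88, edgeR adjusted p = 2.17e-06), Insig1 17319.9 against 9.41 (log2 difference 10.84, SE 0.93, edgeR adjusted p = 7.81e-08), and Pdpn 17622 against 0.654 (log2 difference 14.70, SE 1.61, edgeR adjusted p = 2.08e-06). Among transcription factors Nr2f2 had 5464 against 167 CPM (log2 difference 5.03, SE 1.16, edgeR adjusted p = 0.00342) and Ets1 4634 against 31.8 CPM (log2 difference 7.19, SE 0.95, edgeR adjusted p = 1.9e-05). Among signalling genes Jag1 had 11771 against 147 CPM (log2 difference 6.32, SE 1.60, edgeR adjusted p = 0.00638) and Dusp3 23093 against 94.9 CPM (log2 difference 7.93, SE 1.17, edgeR adjusted p = 6.61e-05). Other wall genes were lower in the Ai47 aSMCs. Notch3 had 144 against 607 CPM (log2 difference -2.07, SE 0.58, edgeR adjusted p = 0.0127), Tagln, the smooth muscle actin cross-linker transgelin, 13.6 against 247 CPM (log2 difference -4.19, SE 0.68, edgeR adjusted p = 0.000165), Hspg2 3.86 against 135 CPM (log2 difference -5.13, SE 1.02, edgeR adjusted p = 0.00109) and Prkg1 28.1 against 371 CPM (log2 difference -3.72, SE 0.78, edgeR adjusted p = 0.00166). Csrp1 had 2.58 against 933 CPM (log2 difference -8.49, SE 0.56, edgeR adjusted p = 2.93e-09). Against cortex, Tagln in the Ai47 aSMCs lay at 5.99, 8.49 and 15.7 CPM and in cortex at 0.599, 3.25 and 4.96 CPM (log2 fold change 1.77, SE 0.59, edgeR adjusted p = 0.016). By list, 7 of 18 contractile genes and 10 of 21 integrins were lower in the Ai47 aSMCs and none higher, while 5 of 23 cholesterol synthesis genes were higher and 2 lower. Of 39 mural transcription factors 4 were higher and 10 lower. Summed over the list, Notch pathway genes had means of 28853 CPM in the Ai47 and 1879 CPM in the Ai14 aSMCs. Leucine-rich proteoglycan, syndecan and glypican genes had 27937 and 2081 CPM. Ephrin and Eph receptor genes had 8427 and 83.6 CPM, beside 106 CPM in cortex. Some lists went the other way, with contractile genes at 13212 and 18980 CPM and regulators of G protein signalling at 3897 and 9346 CPM. The call was lost for Tagln with library totals alone, a fold threshold (log2 of 1) and the 6 columns as 1 library.

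**Figure D5:**
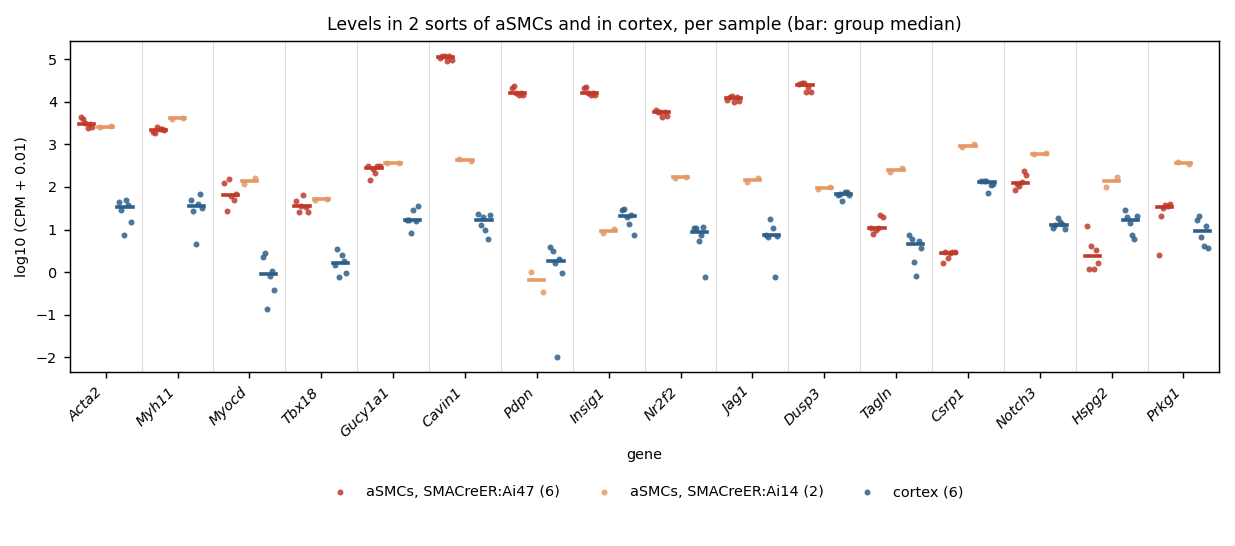
Levels of 16 genes (y axis, log10 of CPM + 0.01 after TMM over all 17 samples) in each sample of Ai47 aSMCs (6), Ai14 aSMCs (2) and cortex (6). Acta2, Myh11, Myocd, Tbx18 and Gucy1a1 did not pass the test between the 2 sorts, Cavin1, Pdpn, Insig1, Nr2f2, Jag1 and Dusp3 stand far above the Ai14 level in the Ai47 aSMCs, and Tagln, Csrp1, Notch3, Hspg2 and Prkg1 lie below it.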

How the data were processed

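RNA-seq was measured in 17 samples, of which the 6 sorted aSMC samples of SMACreER:Ai47 mice and the 6 cortex samples form the comparison. The authors deposited raw counts per gene symbol for all samples. Per the labels, trimming used Trim Galore 0.6.7 and quantification Salmon 1.4.0 against GRCm38, with quality reports by MultiQC 1.13 and FastQC 0.11.9 and libraries by NuGEN Ovation kits. The study's methods name TopHat, htseq-count and a TruSeq kit instead. The source of this table, its annotation and its use of strand are not given in the sources used, so reads of overlapping and antisense genes cannot be told apart.

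Counts were filtered with filterByExpr, scaled with TMM and tested with edgeR 4.0.16 (R 4.3.3, quasi-likelihood, group as the only term, Benjamini-Hochberg adjusted p under 0.05). Calls were compared with DESeq2 1.42.0, other scalings and filters, library totals alone, samples left out and the 6 aSMC columns as 1 library. The Ai47 and Ai14 aSMCs were compared in a fit of all 17 samples. On simulated counts for the comparison with cortex, run on 11255 genes, 26.1% of 92 genes changed 4-fold and 97.6% of 83 genes changed 32-fold were recovered. The simulation held few changed genes and independent columns. In the data 58.6% of genes were called and some aSMC counts were nearly identical, so these rates do not carry over to the data. An exact two-sided permutation test on log2(CPM + 0.5) over 924 assignments, whose smallest p is 0.00216, gave p under 0.05 for 111 of the 115 genes named here that edgeR called (the exceptions were Foxc1, Mmp2, Pdgfrb and Prkg1) and for 1 of 11, Tead1, that it did not call. Exon lengths came from the GENCODE annotation, which matched 97.5% of symbols. Promoters came from RefSeq tables of GRCm38, which held 2928 of the 3877 genes called higher and 2193 of the 2887 called lower. Neither counts nor intervals cover more than counting error where molecules were amplified.

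The gene lists and members were chosen with earlier results of these data known. Named genes are those with the largest changes, the most abundant, most increased and most decreased members of each list, and a set of wall, metabolic and signalling genes taken whatever their values. Of that set, Gata6 and Acan had too few counts to be tested, and 2 genes that the rule picked are not reported here.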

Additional observations from a re-analysis of the deposited data

Results flagged for a closer look

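In 31 of 256 sets of 6 values, the level of 1 gene or the library total or mitochondrial share in 1 group, 1 sample lay farther from the others than Dixon's 95% limit for 6 values allows. For normal values chance flags about 1 in 20 such groups, but these levels were not put on a log scale and some rest on very few counts. The number of flags therefore cannot be read against that rate. Of the 31, 18 were in sorted aSMCs and 13 in cortex. Sorted aSMC replicate 1 stood far above the other 5 for Gng7 at 0.399 CPM, Hspg2 at 10.1 CPM, Lama5 at 45.8 CPM, Lpl at 172 CPM and Pdgfrb at 94 CPM. Sorted aSMC replicate 2 stood far above the other 5 for Ltbp4 at 7.22 CPM and Tbr1 at 0.0437 CPM. Sorted aSMC replicate 3 stood far above the other 5 for Bcan at 0.315 CPM, Hey1 at 5.2 CPM, Mbp at 0.347 CPM, Myh11 at 2032 CPM and Nsdhl at 0.914 CPM. Sorted aSMC replicate 4 stood far above the other 5 for Lhx2 at 0.0791 CPM and Wnt5a at 5.72 CPM. Sorted aSMC replicate 5 stood far above the other 5 for Fbln5 at 0.959 CPM, Foxf2 at 7.67 CPM, Rgs4 at 281 CPM and Robo2 at 0.465 CPM. Cortex replicate 1 stood far above the other 5 for Adamtsl3 at 0.592 CPM. Cortex replicate 3 stood far above the other 5 for Ebf1 at 96.9 CPM and Foxf2 at 7.79 CPM. Cortex replicate 4 stood far above the other 5 for Lpl at 10.2 CPM, Pdgfa at 32 CPM, Rgs5 at 486 CPM and Tbx2 at 2.7 CPM. Cortex replicate 4 stood far below the other 5 for Csrp1 at 56 CPM and Nfia at 91.5 CPM. Cortex replicate 5 stood far above the other 5 for Mmp2 at 20.3 CPM. Cortex replicate 6 stood far above the other 5 for Mrvi1 at 15.7 CPM, Prok2 at 0.139 CPM and Tgfb3 at 19.9 CPM. The cause was not tested. The log2 fold changes that moved without one of these samples are given beside the gene in the report.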

How the results depend on the processing

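The call rested most on the scaling, on the 6 aSMC columns being separate samples and on low counts. Beside 3877 genes higher and 2887 lower, library totals alone gave 2279 and 4438, the 6 aSMC columns as 1 library 2369 and 1661, and testing without a filter on counts 4697 lower, over more genes. Leaving out 1 sample gave 3442 to 4058 higher and 2813 to 2993 lower. In the comparison of Ai47 with Ai14 aSMCs, the 8 aSMC samples alone gave 2751 genes higher, against 1426 in the fit of all 17 samples.

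Of 126 named genes, 5 changed direction with library totals alone, which put Col4a2 at -1.28, Lama5 at -0.13, Pkm at -1.50, Prkg1 at -0.094 and Srf at -0.51 on the log2 scale. Of these, Prkg1 alone was called in the edgeR test as reported. Pkm was also below 0 at -0.0477 with a minimum of 1 CPM, at -0.0596 with all 17 samples and at -0.0566 with the columns as 1 library, and Sparcl1 was at 0.0577 without a filter. With 1 sample left out, Col4a2 ranged from -0.10 to 0.67, Pkm from -0.0676 to 0.221, Sparcl1 from -0.239 to 0.00561 and Wnt5a from -1.21 to 0.0501. None of the 126 changed direction with DESeq2, with its size factors, with the fold threshold or without cortex replicates 1 and 2, and none of the 124 that could be run without mitochondrial genes did. Of the 112 counts of list members, 43 moved by over 1.5 times with library totals alone and 50 with the columns as 1 library. The cause was not tested.

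With the replicate number as a block, 3626 genes were higher and 3063 lower. Deviations of samples that share a number correlated at -0.0322 to 0.0175, so the numbers were not taken as pairs. The depth of cortex, 5397905 to 7288036 counts, limits what can be said of genes at or near 0 there.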
